A study of Mus musculus with 18 samples.

Results

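Biotin-tagged *miR-92b* was pulled down from whole cell lysates of mouse Neuro2A (N2A) cells and the collected RNA was compared with that from whole cell lysates of control cells. This comparison used 6 of the 18 samples of the series, 3 labelled whole cell *miR-92b* and 3 labelled whole cell control, chosen by their labels alone. N2A is a mouse neuroblastoma line, labelled wild type in all samples. The *miR-92b* cells were labelled as overexpressing the miRNA and were transfected with a biotinylated mimic at 25 nM, and the control cells were not transfected. The other whole cell group, Scr, received a scrambled biotinylated mimic at the same dose, and the remaining 9 samples were the nuclear lysates of the same 3 groups. The *miR-92b* and control samples differ both in the mimic and in transfection, and these cannot be told apart in this comparison, so values of the 3 Scr samples are given beside it. No unselected lysate was analysed here, so more RNA held by the beads and more RNA in the lysate cannot be told apart, nor can fewer cells and less RNA per cell.

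A miRNA directs an Argonaute protein to target RNAs, and the bases from position 2 to 8 of the miRNA, its seed, do most of the pairing. Sites that pair with the seed usually lie in the 3′ untranslated region (3′ UTR) of an mRNA, and the silencing complex then shortens the poly(A) tail and lowers the stability or translation of the mRNA. In a pulldown with a tagged miRNA, streptavidin-coated beads collect the miRNA together with RNA bound to it, and RNA that sticks to the beads is seen in cells without the tag. *miR-92b* belongs to the miR-25 family, which is known for roles in neural progenitors and in cell growth.

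The mature sequences of the family in RefSeq (GRCm38.p6) are shown because the 5 members share the seed, given in capitals, and so have the same seed sites. The arm and sequence of the mimic are not given in the labels, and the 3p arm was taken as the mature *miR-92b*, which lies at chr3:89227126-89227147 on the minus strand.
miR-92b-3p: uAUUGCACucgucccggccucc
miR-92a-3p: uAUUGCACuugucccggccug
miR-25-3p: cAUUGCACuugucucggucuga
miR-32-5p: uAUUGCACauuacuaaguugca
miR-363-3p: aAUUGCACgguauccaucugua
On the mRNA, written as DNA in its own direction, the seed pairs with GTGCAAT (a 7mer-m8 site), and an A after it makes the 8mer GTGCAATA. The 7mer-A1 site is TGCAATA where no G stands before it. Only the mRNA strand was searched, and each match was counted once, in the longest class that holds it. In the GENCODE M21 annotation (GRCm38), 2.274% of 21022 genes with a 3′ UTR hold an 8mer there, 4.567% hold a 7mer-m8 and 7.031% a 7mer-A1. The median length of these 3′ UTRs is 961 nucleotides. A match in these letters is a description of the sequence and not evidence of binding.

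The data are read counts on loci, where a locus is a set of transcripts that the authors assembled and named by 1 or more gene symbols. Reads on loci with a symbol numbered 6334513, 4096874 and 10562600 in *miR-92b* samples 1, 2 and 3 and 5073238, 6814820 and 7772587 in control samples 1, 2 and 3. The values used are normalized counts, reads per locus scaled by a size factor of the sample. *miR-92b* sample 3 stood apart from the other whole cell samples. On the first principal component of the 9 whole cell samples, with 24.3% of the variance, it lay at 214, while the other 8 lay between -46.4 and -6.37. Thinned to a common depth of 3752991 reads, reads fell on 17058, 15786 and 13823 symbol-bearing loci in *miR-92b* samples 1, 2 and 3 and on 16710, 17386 and 18275 in control samples 1, 2 and 3. Of the loci tested, 800, 1562 and 2603 had no read in *miR-92b* samples 1, 2 and 3, against 903, 678 and 376 in control samples 1, 2 and 3. *miR-92b* sample 3 thus held the fewest loci and the most without a read, although it had more reads than the other 5 samples. Results that rest on this sample are given with and without it. Scr sample 1 stood apart on the second component, with 19.2% of the variance. It lay at 189, while the other 8 lay between -43.8 and 10.8. Of the loci tested, 2010, 918 and 1189 had no read in Scr samples 1, 2 and 3. All values over Scr include Scr sample 1.

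**Figure D1:**
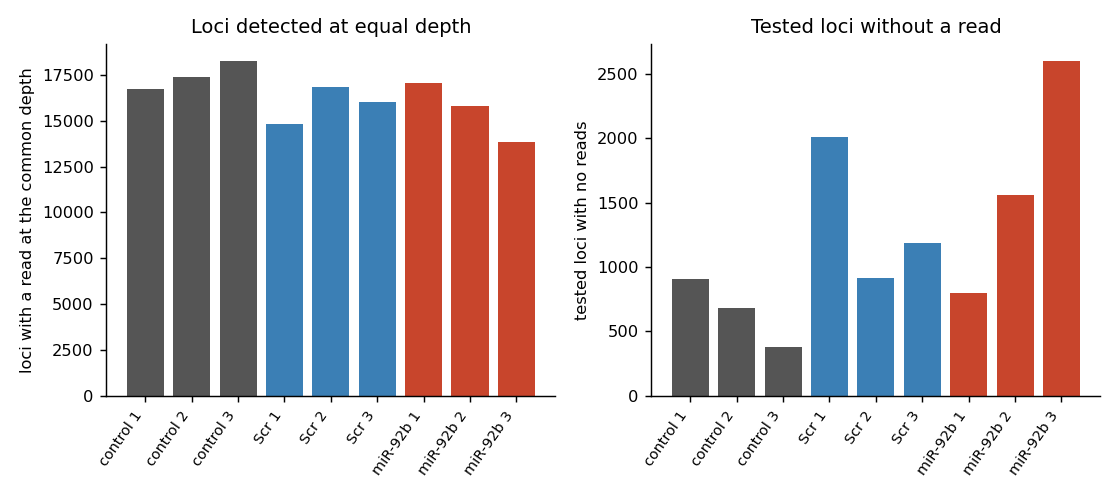
Number of loci with at least 1 read after thinning each whole cell sample to the same number of reads (left) and number of tested loci with no read at full depth (right). Each bar is 1 sample, coloured by group (control grey, Scr blue, miR-92b red). miR-92b sample 3 has the lowest bar on the left (13823 loci) and the highest on the right (2603 loci).

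The question of this comparison is which RNAs the *miR-92b* mimic collects above the bead background. The test covered 15579 loci that carry a symbol and averaged 10 or more normalized counts across the 18 samples. Of these, 1 was higher with *miR-92b* and 0 were lower at an adjusted p-value below 0.05 (limma, two-sided, Benjamini-Hochberg), which is 0.00642% of the loci. At an unadjusted p-value below 0.05, 154 loci were higher (0.989%) and 577 lower (3.70%). The 3 *miR-92b* samples lay all above the 3 control samples for 500 loci (3.21%) and all below them for 748 loci (4.80%). The median log2 fold change of all loci was -0.10. Without *miR-92b* sample 3, 419 loci were higher (2.69%) and 842 lower (5.40%) at an unadjusted p-value below 0.05, and 2 were higher at an adjusted p-value below 0.05. With 3 samples a group, an exact permutation test of 1 locus cannot give a p-value below 0.1. The labels do not say whether the 3 samples of a group were separate cultures, so p-values measure only the spread between samples as sequenced. In the limma model this spread was pooled over all 18 samples, with the nuclear and Scr samples included.

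**Figure D2:**
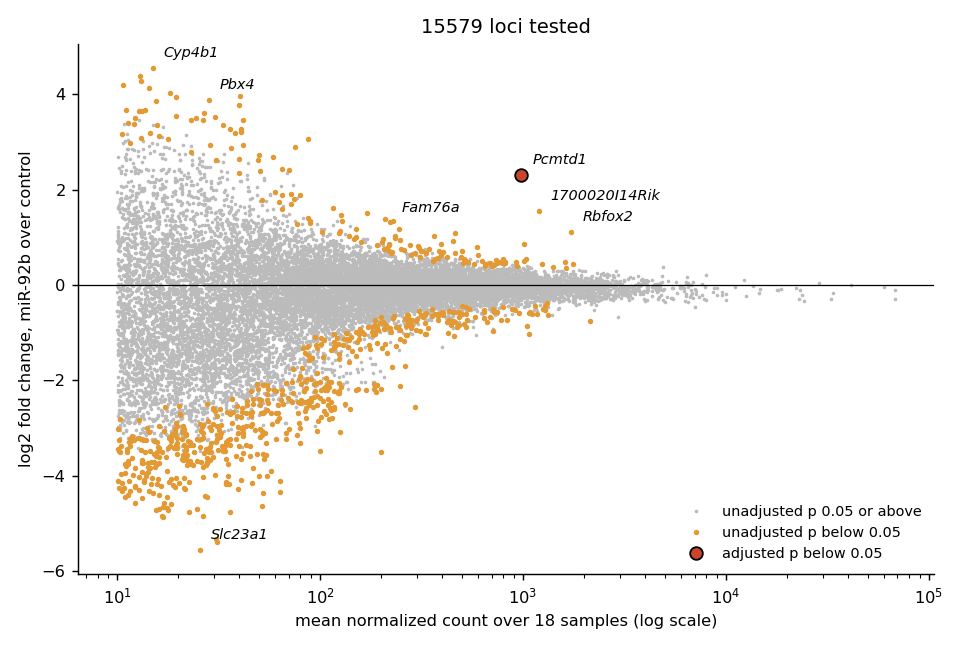
Log2 fold change of miR-92b over control against the mean normalized count over 18 samples (log axis) for the 15579 loci tested. Grey points had an unadjusted p-value of 0.05 or above, orange points one below 0.05, and the red circle is the locus with an adjusted p-value below 0.05. The Pcmtd1 locus lies at a log2 fold change of 2.30, away from other loci of its level, and the 577 orange points below 0 have a median level of 52.9, less than the 180.4 of the 154 above 0.

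The locus that rose with *miR-92b* (XLOC_000217) spans chr1:7088920-7173628 of GRCm38 and covers both Pcmtd1 and Gm38372. The product of Pcmtd1 resembles the methyltransferases that repair isoaspartate, a form of protein damage that builds up with age. Its 3′ UTR of 3746 nucleotides holds 1 8mer, which starts at position 464 and is shown with its flanks, the site in capitals.
Pcmtd1 8mer, chr1:7170331-7170360 (plus strand): ccgggcaacgtatgaGTGCAATActaattc
The normalized count of the locus was 2188, 4905 and 1609.9 in *miR-92b* samples 1, 2 and 3, 679.7, 483 and 439 in control samples 1, 2 and 3 and 548, 427 and 629 in Scr samples 1, 2 and 3. Each *miR-92b* sample lay above all control and Scr samples, and sample 2 was the highest. Against the control mean, the 3 *miR-92b* samples were 4.10, 9.19 and 3.02 times as high. On the log2(normalized count + 1) scale, the log2 fold change was 2.30 (standard error 0.28, limma adjusted p = 3.71e-04). It stayed between 1.84 and 2.64 with each of the 6 samples left out. The spread among the 3 *miR-92b* samples was wide, and with only these 2 groups in the model the limma adjusted p was 1. In a model of the 3 whole cell groups it was 0.0271. Over *miR-92b* and Scr samples the log2 fold change was 2.29, and over nuclear *miR-92b* and control samples it was 0.22. In nuclear samples the counts were 659.7, 584 and 688 with *miR-92b* and 598, 488 and 574 in control. Gm38372 lies within Pcmtd1 on the same strand, so the reads of the 2 genes cannot be split.

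After Pcmtd1, the 3 loci with the smallest p-values among those higher with *miR-92b* did not pass the adjusted threshold in the limma test. Each names a gene with 1 seed match in its 3′ UTR or noncoding transcript. By the 3′ UTRs of their genes, 2.12% of all tested loci are 8mer loci. The shares are 3.83% for 7mer-m8 and 5.07% for 7mer-A1. Whether matches are more frequent among the loci with the smallest p-values was not tested. 1700020I14Rik is a long noncoding RNA gene next to Oip5, known as Cyrano, which is best known for a site that pairs almost fully with miR-7. Rbfox2 encodes an RNA-binding regulator of splicing in neurons and muscle. Fam76a encodes a protein of little-known function. Their sites are shown because these loci come next to Pcmtd1 in the comparison.
1700020I14Rik 8mer, chr2:119602050-119602079 (plus strand): acaaaaacgggatatGTGCAATAtatataa
Rbfox2 7mer-A1, chr15:77084093-77084121 (minus strand): atgaggcctggctatTGCAATAtttacta
Fam76a 7mer-m8, chr4:132899707-132899735 (minus strand): taacactggtcgggaGTGCAATtttccct
The 8mer of 1700020I14Rik starts at position 2863 of the 8300 nucleotides of the transcript, the 7mer-A1 of Rbfox2 at position 56 of a 3′ UTR of 5172 nucleotides, and the 7mer-m8 of Fam76a at position 1502 of 2009. In the annotation, 0.651% of 33464 noncoding genes hold an 8mer in their longest transcript. The median length of these transcripts is 606 nucleotides, so this is not the share for a transcript of 8300 nucleotides. The 3′ UTRs of Rbfox2 and Fam76a are also longer than the median of 961 nucleotides. The shares over all genes or loci are thus not those for 3′ UTRs of these lengths.

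1700020I14Rik had normalized counts of 2019, 4389 and 2827 in *miR-92b* samples 1, 2 and 3, 1110.1, 906 and 1000.1 in control and 808, 914 and 1455 in Scr samples. The *miR-92b* samples lay above all others, with sample 2 again the highest, and the log2 fold change over control was 1.55 (standard error 0.28, limma adjusted p = 0.0818). It was called by DESeq2 on recovered reads (log2 fold change 1.62, DESeq2 adjusted p = 4.01e-04), and not by edgeR (edgeR adjusted p = 0.0716). Rbfox2 had 2772, 4906 and 2490.1 in *miR-92b*, 1464, 1556 and 1458 in control and 1189, 1679.9 and 1569 in Scr samples. The 3 control samples lay within 98.0 normalized counts of each other, and the groups did not overlap (log2 fold change 1.12, standard error 0.22, limma adjusted p = 0.168). Without *miR-92b* sample 3, Rbfox2 passed the threshold (log2 fold change 1.30, limma adjusted p = 0.0145). Fam76a had 367, 634 and 728 in *miR-92b*, 279, 203 and 194 in control and 204, 244 and 266 in Scr samples (log2 fold change 1.31, standard error 0.34, limma adjusted p = 1). Here sample 3 was the highest of the *miR-92b* samples, and the groups did not overlap. DESeq2 called Rbfox2 and Fam76a as well, with log2 fold changes of 1.19 and 1.36.

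**Figure D3:**
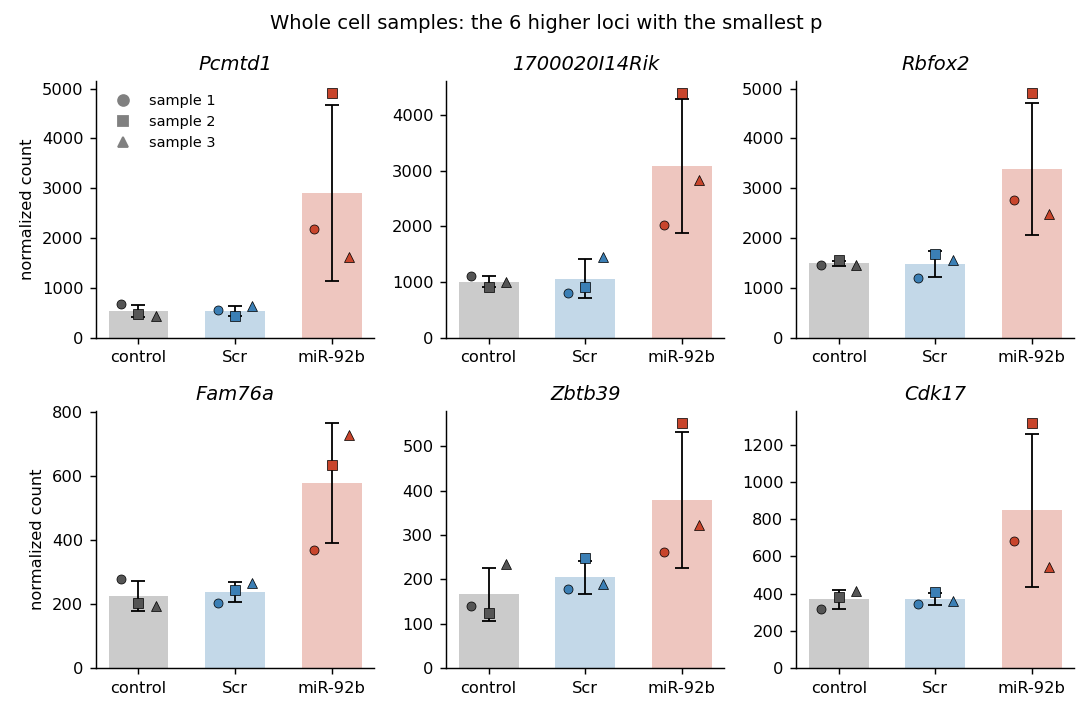
Normalized count in each whole cell sample for the 6 loci with the smallest p-values among those higher with miR-92b. Bars are group means, error bars the SD (n = 3), and symbols mark samples 1 to 3. In the 6 panels every miR-92b point lies above every control point, and for 5 of the 6 loci miR-92b sample 2 is the highest.

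The other 6 of the 10 loci with the smallest p-values hold no seed match in their annotated 3′ UTR. Zbtb39, a BTB zinc finger gene, had 262, 551 and 321 in *miR-92b* and 139, 125 and 235 in control samples. Cdk17, which encodes a cyclin-dependent kinase of the PCTAIRE type, had 683, 1315 and 544 in *miR-92b* and 315, 379.6 and 415 in control samples. Their log2 fold changes were 1.17 and 1.10, and the groups did not overlap at either locus. Gga3, whose protein is a clathrin adaptor of the trans-Golgi network, had 1364, 2160.4 and 936 in *miR-92b* and 943, 758 and 649 in control samples, so sample 3 lay below control sample 1. Zc3hav1l had 325, 341 and 462 against 227, 154 and 189, a log2 fold change of 0.98. Pbx4, which encodes a homeodomain transcription factor, and Cyp4b1, a cytochrome P450, were counted at low levels. Pbx4 had 40.5, 92.8 and 45.3 in *miR-92b* and 0, 2.59 and 14.8 in control samples. Cyp4b1 had 12.6, 22.8 and 38.2 in *miR-92b* samples, no read in control and 0, 15.2 and 25.4 in Scr samples. The limma adjusted p was 1 for each of these 6 loci, and their log2 fold changes over Scr were between 0.80 and 1.70.

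The 10 loci with the smallest p-values among those lower with *miR-92b* all had few reads, and none passed the adjusted threshold. Gm37470 had 0, 7.14 and 0 in *miR-92b* and 56.4, 25.1 and 42.9 in control samples (log2 fold change -4.33, limma adjusted p = 0.329). The vitamin C transporter gene Slc23a1 had no read in *miR-92b* samples and 51.7, 51.02 and 36.6 in control samples. Against a floor of 3 reads per library, it was at least 15.7-fold lower. In Scr samples its counts were 0, 27.3 and 0, so 2 of the 3 Scr samples had no read there either. The 5S rRNA gene n-R5s15 was likewise without a read in *miR-92b* samples, with 64.7, 21.6 and 42.9 in control samples, at least 14.5-fold lower. Psmb8, a subunit of the immunoproteasome, had 0, 0 and 17.8 in *miR-92b* and 59.97, 55.3 and 31.2 in control samples. At Trp53rkb, a p53-related kinase gene, these were 12.6, 0 and 17.8 and 74.1, 59.7 and 53.8.

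Another 3 of the 10 loci carry a symbol shared with many fragments. Lrrc4, a synaptic adhesion gene, names 29 tested loci, Timp3, an inhibitor of metalloproteinases, 16, and Angpt2, a ligand of the Tie2 receptor, 15. Their assembled regions also span the genes Snd1, Syn3 and Mcph1, so reads of a fragment cannot be assigned to 1 gene. Among these fragments 3, 5 and 2 were lower and 0 higher at an unadjusted p-value below 0.05, where 3.70% of all loci were lower and 0.989% higher. The symbols were chosen because 1 fragment of each had a small p-value, so these counts are a description. The named Lrrc4 fragment (XLOC_122852) had 0, 18.6 and 0.637 against 54.1, 64.9 and 63.9, that of Timp3 (XLOC_017685) 0, 1.43 and 0 against 45.9, 35.5 and 20.3 and that of Angpt2 (XLOC_142214) 27.9, 4.28 and 0 against 84.7, 64.9 and 35.9. Gm36958 and Aifm2 made up the 10, and only at Aifm2 did the groups overlap. DESeq2 on recovered reads called 12 loci lower, among them Gm37470, n-R5s15, Slc23a1, Trp53rkb and the Timp3 fragment. Without *miR-92b* sample 2, limma called Gm37470, Gm36958 and the Lrrc4 fragment lower, and without sample 1 it called the Angpt2 fragment.

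Of the 577 loci that were lower at an unadjusted p-value below 0.05, 226 (39.2%) had no read in 2 or 3 of the *miR-92b* samples, and 75 had none in all 3. Their median mean level was 52.9 normalized counts, against 180.4 for the 154 higher loci and 116 for all loci. The part of loci without a read in the lower values was not tested. Without *miR-92b* sample 3, which had the most such loci, the number of lower loci was 842.

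Loci were then described by the seed match in the longest annotated 3′ UTR of the genes they name. The position of the locus itself was not used, so a fragment need not cover the site. The sites of 1 3′ UTR can thus be counted at several loci, and Lrrc4, for example, names 29 tested loci. Of the loci tested, 331 were classed as 8mer, 597 as 7mer-m8 without an 8mer, 790 as 7mer-A1 only, and 9877 as no match. The remaining 3984 have no annotated 3′ UTR. Among the 331 8mer loci, 9 were higher (2.72%) and 4 lower (1.21%) at an unadjusted p-value below 0.05, where the shares over all loci were 0.989% and 3.70%. Over loci with a 3′ UTR but no match these shares were 0.942% and 2.69%. The *miR-92b* samples lay all above the control samples at 20 of the 8mer loci (6.04%, against 3.21% of all loci) and all below at 14 (4.23%, against 4.80%). For 7mer-m8 loci 25 lay all above (4.19%), for 7mer-A1 loci 28 (3.54%) and for loci without a match 328 (3.32%). The median log2 fold change was -0.03 for 8mer, -0.04 for 7mer-m8, -0.05 for 7mer-A1 and -0.06 for loci with no match. Most 8mer loci thus lay near the control level, and the higher share lay in a few of them. The difference between classes was not tested.

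**Figure D4:**
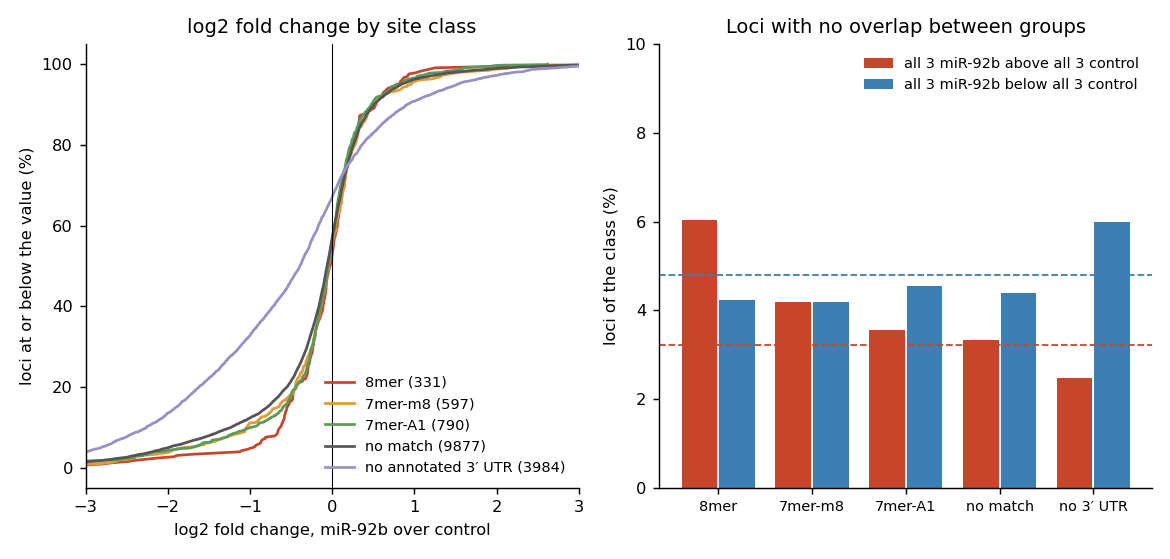
Left, cumulative share of loci (percent) against the miR-92b over control log2 fold change, by seed match in the 3′ UTR, with the number of loci in parentheses. Right, percent of each class whose 3 miR-92b samples lie all above (red) or all below (blue) the 3 control samples, where dashed lines mark all loci tested (3.21% and 4.80%). The curves with a 3′ UTR nearly coincide above 0, and 6.04% of the 8mer loci lie all above control.

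Restricting the classes to loci with a mean of at least 100 left 258 8mer loci, of which 8 were higher (3.10%) and 3 lower (1.16%) at an unadjusted p-value below 0.05, where the shares over the 8279 loci at this level were 1.08% and 2.44%. Of the 258, 16 lay all above control (6.20%, against 3.26%). Without *miR-92b* sample 3, 21 of the 331 8mer loci were higher (6.34%, against 2.69% of all loci) and 16 lower (4.83%, against 5.40%). Over loci with a 3′ UTR but no match, 2.19% were higher and 6.19% lower without that sample. Loci with 2 or more 8mer or 7mer-m8 matches numbered 86, with a median log2 fold change of 0.00. Of these, 1 was higher (1.16%) and 0 lower at an unadjusted p-value below 0.05, against 0.989% and 3.70% of all loci. Some annotated 3′ UTRs are very long, such as the 122583 nucleotides of D10Wsu102e. Matches in such models may not lie in a real 3′ UTR. Snx13, a sorting nexin gene with 2 8mers and 1 7mer-m8, had 386, 504 and 345 in *miR-92b* and 307, 316 and 494 in control samples. Loci without an annotated 3′ UTR had a median of -0.39, and of 0.12 without *miR-92b* sample 3, so their direction turned with that sample. Of these, 35 name a noncoding transcript with an 8mer, as 1700020I14Rik does. Among the 35, 1 lay all above control (2.86%, against 3.21% of all loci) and 2 all below (5.71%, against 4.80%). Their median was -0.35, and 0.15 without *miR-92b* sample 3.

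The 9 8mer loci that were higher and the 4 that were lower are named here after their values were seen, and Pcmtd1 is the only one past the adjusted threshold. The sites of 7 higher loci and of the 4 lower loci are shown to allow a comparison of their flanks.
Sertad3 8mer, chr7:27477149-27477178 (plus strand): accaggccggaccatGTGCAATAgggcaga
Tagap1 8mer, chr17:6955604-6955633 (minus strand): tgtgtaaccgggtttGTGCAATAtgtagta
Lmbr1l 8mer, chr15:98904111-98904140 (minus strand): tttacatgatttgatGTGCAATAgggtggg
Znrf2 8mer, chr6:54889205-54889234 (plus strand): ttctaaaaggaaactGTGCAATAgcttgtt
Adam19 8mer, chr11:46144036-46144065 (plus strand): ctaagtgtttgtcctGTGCAATAtacagcc
Gramd1b 8mer, chr9:40297942-40297971 (minus strand): ggctacaagaggcctGTGCAATAcatgtac
Pik3ca 8mer, chr3:32464467-32464496 (plus strand): aaaaaaagaaaaactGTGCAATAatctcct
Ptprg 8mer, chr14:12241793-12241822 (plus strand): ttccattgatcattaGTGCAATAgcaatta
Tmem184b 8mer, chr15:79362311-79362340 (minus strand): agcccaccctacaccGTGCAATAcccagac
Kif14 8mer, chr1:136529199-136529228 (plus strand): agttttcaccttgctGTGCAATAatcttta
Arhgef15 8mer, chr11:68943319-68943348 (minus strand): taaatcttcaggactGTGCAATActgttcc
Pik3ca, the catalytic alpha subunit of phosphoinositide 3-kinase, had 682, 653 and 969 in *miR-92b*, 542, 491 and 542 in control and 412, 503 and 644 in Scr samples. The ubiquitin ligase gene Znrf2 had 431, 487 and 762 in *miR-92b*, 292, 367 and 301 in control and 333, 434 and 357 in Scr samples. The *miR-92b* samples lay above all control samples at both loci, by log2 fold changes of 0.53 and 0.77, and above all Scr samples only at Pik3ca. Adam19, a membrane metalloproteinase, had 589, 704 and 580.0 in *miR-92b* and 374, 488 and 402 in control samples, and Tagap1 238, 179.9 and 134 against 109, 92.5 and 53.01. Lmbr1l, a lipocalin receptor, had 635, 829.6 and 368 in *miR-92b* and 296, 282 and 342 in control samples, but Scr sample 3 (472) lay above *miR-92b* sample 3. Sertad3, a SERTA domain gene, had 121, 351 and 69.5 in *miR-92b* samples, 35.3, 0 and 21.05 in control and 0, 19.2 and 0 in Scr samples. These groups did not overlap, whereas Gramd1b, a cholesterol carrier of the endoplasmic reticulum, and the locus of Btbd8 overlapped with control in 1 or more samples. Gramd1b had 937, 1419 and 857 against 631, 598 and 974, and 730.3, 769.6 and 952 in Scr samples. The Btbd8 locus had 516, 589.7 and 284 against 393, 190.2 and 267, and 402, 535 and 427 in Scr samples, and its log2 fold change over Scr was -0.03. Scr samples of Adam19 had 498, 302 and 351 and those of Tagap1 115, 63.8 and 82.8, below all *miR-92b* samples of these loci.

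On the lower side, the receptor tyrosine phosphatase gene Ptprg had 427, 499.8 and 514 in *miR-92b* and 795, 598 and 702 in control samples, a log2 fold change of -0.53. Tmem184b had 213, 264 and 141 against 383, 282 and 291, also without overlap. Kif14, a mitotic kinesin, and Arhgef15, a guanine nucleotide exchange factor gene, overlapped with control, at 77.4, 166 and 55.4 against 128, 213 and 189 and 0, 0 and 15.3 against 28.2, 7.78 and 67.8. In nuclear samples, the log2 fold changes of these 13 loci lay between -1.64 and 0.41.

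Genes reported as targets of the miR-92 and miR-25 family were taken as a list of 35 symbols, found at 47 loci of which 30 were tested. By the annotated 3′ UTRs of the genes they name, 18 of these 30 are 8mer loci, 4 7mer-m8, 1 7mer-A1 and 7 have no match. None of the 30 passed an adjusted or unadjusted p-value of 0.05 in either direction in the limma test, 0 lay all above control and 1 all below. Over all loci the shares were 0.989% higher and 3.70% lower unadjusted, and 3.21% all above and 4.80% all below, so counts this low in a list of this size are near the background. The median log2 fold change was -0.08, against -0.10 for all loci. Without *miR-92b* sample 3 it was -0.22, against -0.05 for all loci. Sites of 2 well-known targets are shown for comparison with that of Pcmtd1.
Bcl2l11 8mer, chr2:128162434-128162463 (plus strand): attgccactgtacctGTGCAATActgctgt
Fbxw7 8mer, chr3:84979156-84979185 (plus strand): tttcttataacttaaGTGCAATAaaatgtg
Bcl2l11, which encodes the cell death protein Bim, had 89.98, 94.2 and 97.5 in *miR-92b* and 27.05, 51.9 and 97.4 in control samples. Its log2 fold change was 0.85 (standard error 0.54), and control sample 3 was level with *miR-92b* sample 3. Fbxw7, the substrate receptor of a ubiquitin ligase, was the one target with all *miR-92b* samples below control, at 160.2, 149.9 and 164 against 226, 230.0 and 238. Its log2 fold change was -0.55 (standard error 0.33), and in Scr samples it had 90.3, 251 and 255.

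Other reported targets were spread on both sides of control. The antiproliferative gene Tob1 had 40.5, 49.98 and 188 in *miR-92b* and 115, 133 and 179 in control samples, so samples 1 and 2 lay below control and sample 3 above it. Bmpr2, a receptor of bone morphogenetic proteins, showed the same order, with 1001, 979.6 and 2758 against 1593, 1667 and 1322. Dkk3, a secreted protein related to Wnt inhibitors, had 1689.9, 1732 and 2377 against 1633, 1862 and 1830.3, and Nlk, a kinase of the Wnt pathway, 574, 1077 and 459.5 against 599, 553 and 345. The stress kinase gene Map2k4, with 2 8mers, had 500.3, 283 and 465 against 564, 391 and 454. The chloride transporter gene Slc12a5, also with 2 8mers, had 154, 246 and 159 against 155, 83.01 and 126, and the early response gene Btg2, with 2, 64.8, 401 and 231 against 82.3, 158 and 189. In each of these the groups overlapped, and the limma adjusted p was 1.

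The genes of the silencing machinery and of the family itself were measured in the same samples. Of 25 tested loci of RNA silencing factors, 0 were higher and 0 lower at an unadjusted p-value below 0.05 in the limma test (over all loci 0.989% and 3.70%), with a median log2 fold change of 0.05. A count of 0 in a list of this size is near that background. The locus that joins Ago2, the Argonaute with cleavage activity, and Ptk2 had 4566, 4945 and 6043 in *miR-92b* and 5372, 5115 and 5420.1 in control samples. Cnot1, the scaffold of the deadenylase complex, had 2916, 2567 and 2604 against 2681, 2760.0 and 2555. Both ranges overlapped. The locus of Mir17hg, the host transcript of a cluster that holds a *miR-92a* gene, had 328, 166 and 127 in *miR-92b*, 362, 303 and 341 in control and 333, 353 and 326 in Scr samples (log2 fold change -0.81, standard error 0.28, limma adjusted p = 1). Samples 2 and 3 lay below all control samples and sample 1 between them. The locus of Mcm7, whose intron holds *miR-25*, had 601, 388 and 628 in *miR-92b* and 512, 569.8 and 471 in control samples, with overlap.

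Across functional gene lists, *miR-92b* sample 3 and samples 1 and 2 lay on opposite sides of control. Each list was summarised in each sample by the median over its tested loci of the log2 difference from the mean of the 3 control samples. Of the 28 lists with at least 4 tested loci, 18 had a median above 0 in sample 3 and below 0 in samples 1 and 2, and 4 had the reverse. Only 1 list was above 0 and 1 below 0 in all 3 samples (RNA silencing factors and sympathetic neuroblast markers), and 4 had other orders. None of the 33 lists held a locus past the adjusted threshold in the limma test. A locus that joins several symbols can count in more than 1 list. Such loci make up 64 of the 67 snoRNA and scaRNA loci and 32 of the 84 cytosolic ribosomal protein loci. The lists are therefore not independent of each other.

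The cytosolic ribosomal protein genes, which build the translating ribosome, showed this order, with 84 of 88 loci tested. Their medians were -0.50, -0.83 and 0.99 in *miR-92b* samples 1, 2 and 3. In samples 1, 2 and 3, 1, 0 and 82 of the 84 loci lay above all control samples, and 75, 79 and 2 lay below all of them. Over all loci tested, 26.6%, 30.2% and 33.1% lay above and 28.8%, 33% and 36.6% below all control samples in samples 1, 2 and 3. The group median was -0.12, and -0.67 without sample 3, against -0.44 for Scr over control. Rplp0, a protein of the ribosomal stalk, had 6369, 3677 and 21059 in *miR-92b*, 10414, 8286 and 11859 in control and 6496, 5655 and 9573 in Scr samples. Eef1a1, the factor that brings aminoacyl-tRNA to the ribosome, had 24424, 16356 and 75335 in *miR-92b*, 35328, 26904 and 39851 in control and 22404, 20959 and 32397 in Scr samples. At both, *miR-92b* samples 1 and 2 lay below and sample 3 above all control samples, and 2 of the 3 Scr samples lay below all control samples. The elongation factor list had medians of -0.37, -0.83 and 0.92.

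Mitochondrial transcripts followed the same order. The 15 mitochondrially encoded genes of the list fall on 4 loci, with medians of -0.78, -0.72 and 1.17. The locus that holds the mitochondrial rRNAs with mt-Nd1 and mt-Nd2 had 76017, 82370.0 and 309541 in *miR-92b* and 118921, 125547 and 158309 in control samples. Cytochrome b, mt-Cytb, had 7954, 8308 and 28002 against 14369, 12189 and 15544. The 78 tested loci of nuclear-encoded respiratory chain subunits had medians of -0.30, -0.68 and 0.72, and Atp5b, a catalytic subunit of ATP synthase, had 4252, 3884 and 8445 against 5473, 5682 and 4496. Lars2, the mitochondrial leucyl-tRNA synthetase gene, had 4028, 6634 and 2799.9 against 5748, 5853 and 5832, with overlap. Replication-dependent histone genes, most of whose mRNAs end without a poly(A) tail, had medians of -0.51, -0.71 and 1.19 over 55 loci. Tubulins and actins, the cytoskeletal genes, had medians of -0.37, -0.71 and 0.89 over 10 loci. In each of these lists the medians of *miR-92b* samples 1 and 2 lay below control and that of sample 3 above it. Scr samples 1 and 2 also lay below control in these lists. In Scr samples 1, 2 and 3, medians were -0.43, -0.54 and 0.09 for mitochondrially encoded genes and -0.49, -0.26 and -0.28 for respiratory chain subunits. They were -0.51, -0.61 and -0.11 for histone genes and -0.45, -0.50 and -0.32 for tubulins and actins.

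**Figure D5:**
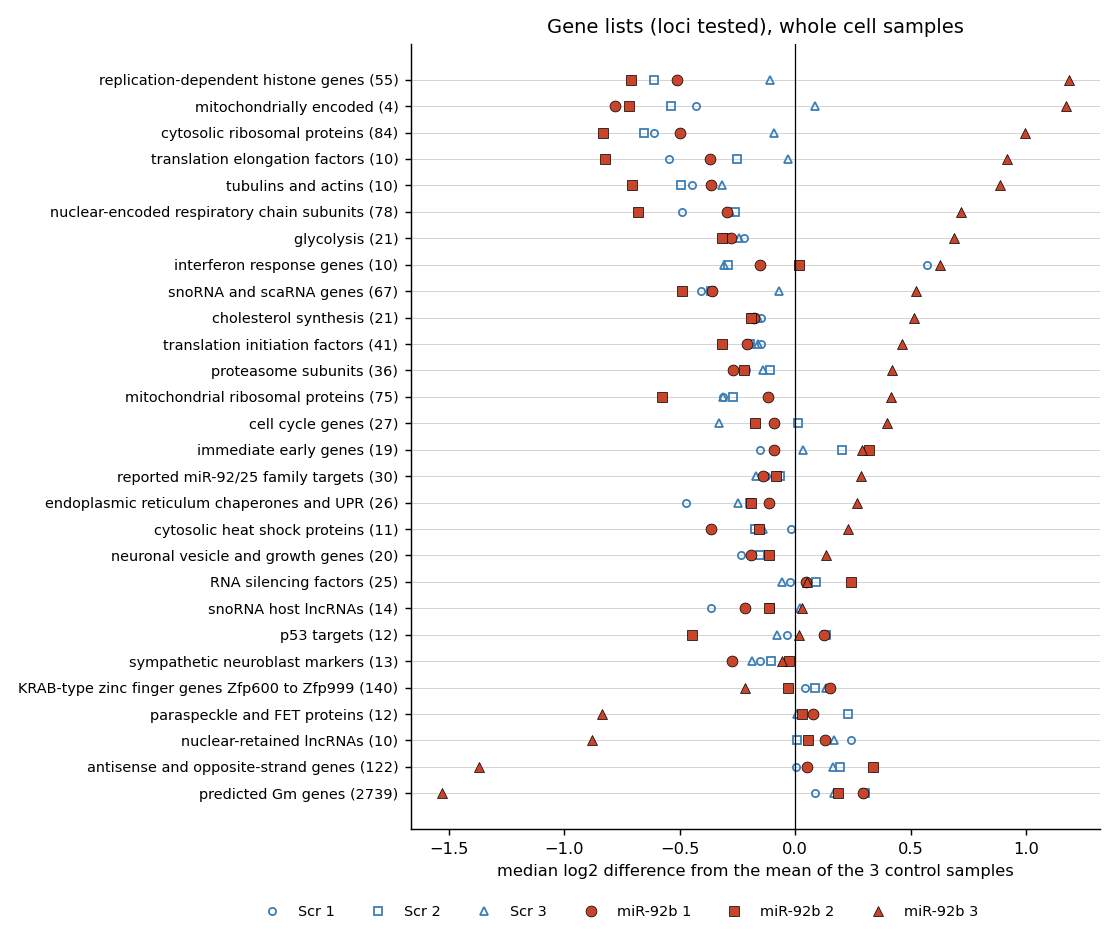
Median over the tested loci of each gene list of the log2 difference from the mean of the 3 whole cell control samples, for each miR-92b (filled red) and Scr (open blue) sample, where symbols mark samples 1 to 3. Lists with at least 4 tested loci are shown, with their number in parentheses, ordered by miR-92b sample 3. That sample ranges from -1.53 for predicted genes to 1.19 for histone genes, while samples 1 and 2 stay between -0.83 and 0.34.

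Nuclear-retained lncRNAs were among the 4 lists with the reverse order, the others being paraspeckle and FET protein genes, predicted Gm genes and opposite-strand genes. The loci of snoRNA and scaRNA genes had medians of -0.36, -0.49 and 0.52 in *miR-92b* samples 1, 2 and 3 over 67 loci. Of these loci, 64 join more than 1 symbol, so their reads cannot be assigned to the small RNAs. The snoRNA host lncRNAs had medians of -0.22, -0.11 and 0.03 over 14 loci. The nuclear-retained lncRNAs had medians of 0.13, 0.06 and -0.88 in *miR-92b* samples 1, 2 and 3 over 10 tested loci. Malat1, an abundant RNA of nuclear speckles, had 47041, 42614 and 22763 in *miR-92b* and 43528, 38046 and 51493 in control samples. Neat1, the scaffold of paraspeckles, had 16521, 14046 and 7677 against 15164, 12582 and 17141, and the locus of Xist, the RNA of X inactivation, 19270.3, 17204 and 7059 against 16221, 14201 and 15927. The locus of Meg3, an imprinted lncRNA named after its value was seen, was the 1 of the list lower at an unadjusted p-value below 0.05, with no read in samples 2 and 3. Over all loci 3.70% were lower, so a count of 1 among these 10 loci is near the background. At the loci of Malat1, Neat1 and Xist, sample 3 lay below all control samples, whereas samples 1 and 2 lay within or above them. Paraspeckle and FET protein genes had medians of 0.08, 0.03 and -0.84, and the splicing factor gene Sfpq had 3554, 3955 and 1437 against 2950.4, 3075 and 2931. The 2739 tested loci named only by predicted (Gm) symbols had medians of 0.29, 0.19 and -1.53, and the 122 of opposite-strand genes 0.05, 0.34 and -1.37. The group median of the Gm loci was -0.43, and 0.12 without sample 3, so its direction turned with that sample. Loci without a symbol, left out of the test, held 4.51% of the reads in *miR-92b* sample 3, 10.3% and 10.8% in samples 1 and 2, and 8.06% to 8.45% in control samples. The part of lysate composition in these differences was not tested.

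Lists of stress and signalling genes held few loci past an unadjusted p-value. Of 11 loci of cytosolic heat shock proteins, 12 of p53 targets and 27 of cell cycle genes, 0 were higher and 0 lower in the limma test at an unadjusted p-value below 0.05, near the background of 0.989% and 3.70%. The ubiquitin ligase gene Mdm2, a p53 target, had 1420.0, 1691 and 1041 in *miR-92b* and 1211, 1321 and 1071 in control samples. Of 10 interferon response loci 1 was lower, Eif2ak2, the kinase that senses double-stranded RNA, with 65.7, 0 and 153 against 156, 95.1 and 98.2 (limma adjusted p = 1). Sample 2 had no read there, while sample 3 lay within the control range. Among lists with at least 4 tested loci, immediate early genes had the highest median log2 fold change, 0.24 over 19 loci. The list was named for this median, so its rank is a description. By sample, its medians were -0.09, 0.32 and 0.29 in *miR-92b* samples 1, 2 and 3, so sample 1 lay below control. The stress-response gene Ier3, named like Ier2 after its values were seen, was the 1 locus higher at an unadjusted p-value below 0.05, with 92.7, 123 and 137 in *miR-92b* and 0, 83.01 and 70.2 in control samples. Ier2, a nuclear protein gene, also lay all above control, with 249, 287 and 179 against 169, 146 and 136. Of the 19 loci, 1 was thus higher (5.26%, against 0.989% of all loci) and 2 lay all above control (10.5%, against 3.21%). Counts this small in a list of this size were not tested. Fosl2, an AP-1 subunit with an 8mer in its 3′ UTR, had 718, 941 and 797 against 554, 591 and 844, with overlap.

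Markers of the labelled cell type were counted in both groups. Of the sympathetic neuroblast markers, 13 of 17 loci were tested, with a median log2 fold change of -0.13. The transcription factor gene Hand2 had 1089.7, 1612 and 1238 in *miR-92b* and 1164, 1134 and 1170.1 in control samples, and Gata2 1308, 1672 and 493 against 1134, 1311 and 1163. At an unadjusted p-value below 0.05, 1 of the 13 loci was lower, a count near the background of 3.70% over all loci. This was Isl1, a LIM homeodomain gene also named after its values were seen. It had 545, 483 and 372 in *miR-92b*, 674, 628 and 762 in control and 742, 742 and 754 in Scr samples, and the *miR-92b* samples lay below all others (log2 fold change -0.57, standard error 0.20, limma adjusted p = 1). The summed normalized counts of this list lay between 6082 and 7427 in *miR-92b* samples and between 6752 and 7224 in control samples. Sums of astrocyte markers were 21.6 to 75.7 in *miR-92b* and 16.5 to 70.9 in control samples, and those of fibroblast markers 4.28 to 90.5 in *miR-92b* and 1.18 to 15.6 in control samples. Sums of immune markers were 0 to 2.70 in *miR-92b* and 0 to 11.2 in control samples. Epithelial markers had no read in *miR-92b* samples and sums of 0 to 11.8 in control samples. In the 6 samples no read was found at 1 of 4, 3 of 6, 3 of 5 and 3 of 4 loci of these 4 lists.

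Side by side with the other comparisons, the *miR-92b* effect in whole cells had few calls at any contrast. Scr and *miR-92b* were each compared with the same 3 control samples. Whole cell Scr over control gave 0 loci at a limma adjusted p-value below 0.05 (0.00%) and 793 at an unadjusted p-value below 0.05 (5.09%), 220 of them higher and 573 lower. For *miR-92b* over Scr, which tests the sequence of the mimic, limma called 1 locus (0.00642%), Pcmtd1, and 1515 (9.72%) had an unadjusted p-value below 0.05. Nuclear *miR-92b* over nuclear control gave 0 (0.00%) and 50 (0.321%). The difference between the whole cell and the nuclear effect gave 0 (0.00%) and 290 (1.86%). At Pcmtd1 that difference was 2.08 on the log2 scale (limma adjusted p = 0.372), at 1700020I14Rik 1.43 and at Rbfox2 1.16.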

How the data were processed

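Wild type N2A cells were transfected with biotinylated mimics (25 nM) or left untransfected, and RNA collected from lysates on streptavidin-coated beads was selected with oligo-dT beads and sequenced from strand-specific libraries. Per the labels and the paper's methods, the authors processed reads with bcl2fastq 2.17, Trimmomatic 0.30, TopHat2 and Cufflinks on GRCm38 (mm10). For the last 2 tools no version, and no annotation release, is given in the sources used here. Deposited were, from the authors, normalized counts, a signal of reads per locus divided by 1 size factor per sample, and FPKM values, which are scaled by transcript length and mapped reads and were used only for an alternative. Their deposited comparison tables hold the fold changes and p-values of Cuffdiff and were not used. Every per-sample column was mapped (0 unmapped).

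All 635205 values above 0 (100.0%) were whole multiples of 1 read, within 0.02 reads or the rounding of the deposited digits, so reads were recovered for depth, edgeR and DESeq2. Of 168136 loci, 52179 have a symbol. Loci tested had a symbol and averaged 10 or more normalized counts (15579, of which 1197 join several symbols). The main test was limma 3.58.1 (R 4.3.3) and its variance trend, on log2(normalized count + 1), a scale that understates changes of low loci, in 1 model of 6 groups of 3, two-sided, at a Benjamini-Hochberg adjusted p below 0.05. The design assumed these units. Alternatives were other pseudocounts, filters, scalings and models, FPKM, edgeR 4.0.16, DESeq2 1.42.0 and each sample left out. The script was tested on simulated data, in which 200 loci were changed by 2 on the log2 scale. It recovered 85 of them (42.5%) with 8 false calls, so changes of this size can be missed. DESeq2 gave no adjusted p-value for 18 loci.

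Seed matches were searched in the longest 3′ UTR per gene in GENCODE M21 and, for noncoding genes, the longest transcript. Each locus took the matches of the genes it names, whatever part of a gene it covers. Named were up to 10 loci per direction (called without overlap, then smallest p), reported targets, the 3 most abundant loci per list, Pcmtd1 and Lars2, and the 10 loci with most matches, of which a selection is described and some items are not reported here. The members, lists and rules were chosen with earlier results of these data known. Floors (3 reads) cover counting error only.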

Additional observations from a re-analysis of the deposited data

Results flagged for a closer look

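Fam76a lay on opposite sides of control in the 2 compartments. In whole cell samples all 3 *miR-92b* values lay above the control values, and in nuclear samples all 3 lay below them, at 72.4, 57.6 and 74.6 against 95.3, 112 and 80.7 normalized counts. The difference between the 2 effects was 1.79 on the log2 scale, with a limma adjusted p of 1.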

How the results depend on the processing

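The count of 1 locus past the threshold stayed at 1 under the settings not named here, including edgeR. It was 2 with a pseudocount of 8, with a mean of at least 1, after quantile normalization and with the sample number as a replicate block, 3 without a filter (2 higher), 5 with sample weights (3 higher), 16 with DESeq2 (4 higher and 12 lower) and 0 with only the 2 groups in the model, where 363 had an unadjusted p-value below 0.05. With each sample left out it lay between 1 and 7, and it was 7 without *miR-92b* sample 1 (2 higher), 4 without sample 2 (1 higher) and 2 without sample 3 (both higher). Without sample 3, *miR-92b* over Scr gave 2 loci and the difference between compartments 1. Over all tested loci, whole cell *miR-92b* and control samples of the same number did not deviate together (correlations of -0.0404, -0.000242 and -0.0232). This covers 2 groups and does not exclude an order shared at single loci. At Acaca, for example, the share of reads was highest in sample 2 in each of the 3 whole cell groups. Whether samples of the same number were handled together was not tested. Of 414 values of the 21 loci named for p-value or by Pcmtd1 and Lars2, 391 kept their direction and side of the threshold, 22 passed it newly, 1 (Pcmtd1 with only the 2 groups) lost it and 0 reversed. Of 600 medians of lists, 590 moved by less than the spread between samples. That spread allowed wide moves. Without *miR-92b* sample 3, the median went from -0.14 to -0.77 for mitochondrially encoded genes and from -0.25 to 0.17 for nuclear-retained lncRNAs. Both are among the 590, so this count does not show that medians kept their size or direction. Depth limits loci with few reads, where 3 reads or fewer cannot show a difference.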
